A study of Homo sapiens with 6 samples.

Results

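Homologous recombination and Fanconi repair genes were followed as 33 transcripts, picked by gene symbol from the 19475 symbols of the deposited count table, and all 33 passed the filter on low counts. All libraries were made from MH7A, a line of fibroblasts from the joint lining of a patient with rheumatoid arthritis. It is immortalised with a viral large T antigen, a protein that binds the retinoblastoma protein and p53. In the first group cells received TNFα at 10 ng/ml together with red light from a 630 nm LED, given for 15 min and 3 times (n = 3, replicates 4, 6 and 10, called LED libraries here). In the other group cells received TNFα at the same dose and no light (n = 3, replicates 2, 8 and 14, called TNF libraries). The comparison asks what differed with light among cells that all carried the inflammatory cytokine. Cells without TNFα were not analysed here, and light and any warming by the lamp cannot be told apart.

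Homologous recombination repairs a broken chromosome by copying the intact sister chromatid, so it works mainly once DNA has been replicated. A sensor complex binds the break, nucleases trim it back to single-stranded DNA, the BRCA proteins load a recombinase on that strand, and nucleases later cut the joined molecules apart. The Fanconi pathway removes crosslinks between the DNA strands: a core complex attaches ubiquitin to FANCD2 and FANCI, and the repair is then passed to recombination. Many of these genes are transcribed in waves from late G1 into S phase under E2F factors, which the retinoblastoma family restrains, whereas sensor genes are usually transcribed throughout the cycle.

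Most of the 33 transcripts had a lower fitted level in LED libraries, but not evenly across the roles. With edgeR's quasi-likelihood test over 13794 genes, 11 of the 33 genes fell at an adjusted p below 0.05 and none rose, against 2.73% of all tested genes called lower, 2.44% called higher and 5.17% called in either direction. These shares belong beside each count of called genes below that uses all 6 libraries and this threshold. The 11 were FANCI, FANCD2, FANCE, FANCA, BRIP1, RAD54L, RAD51AP1, EXO1, BLM, DNA2 and CHEK1, and they were between 1.71-fold and 2.75-fold lower. The median fitted log2 fold change was -0.74 over the 33 genes and 0.01 over all tested genes. For 22 of the 33 genes every LED library lay below every TNF library, which held for 16.2% of all tested genes, and for none did every LED library lie above. Those 33 genes share libraries and cells, so their counts are not independent observations.

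How many genes passed depended on which library was left out, and so did the count over all genes. Without TNF replicate 8 the repair genes called numbered 14, including all 11, with 298 of all tested genes called lower, and without TNF replicate 2 they numbered 9, with 423 lower over all. They numbered 3 without LED replicate 10 (76 lower over all) and 1 without LED replicate 4 (33 over all). They numbered 0 without LED replicate 6 (21 over all) and 0 without TNF replicate 14 (43 over all). With TNF replicate 8 and LED replicate 6 both left out, 19 repair genes were called, including all 11, with 906 lower over all. These 2 libraries differed most from the others of their groups (chi-square per degree of freedom 64.3 to 115). For the pairs kept it was 23.6 and 23.9. Leaving both out therefore narrows the spread within groups, so this count cannot be read beside the single omissions. In each of the 6 single omissions all 11 genes kept a negative log2 fold change.

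**Figure D1:**
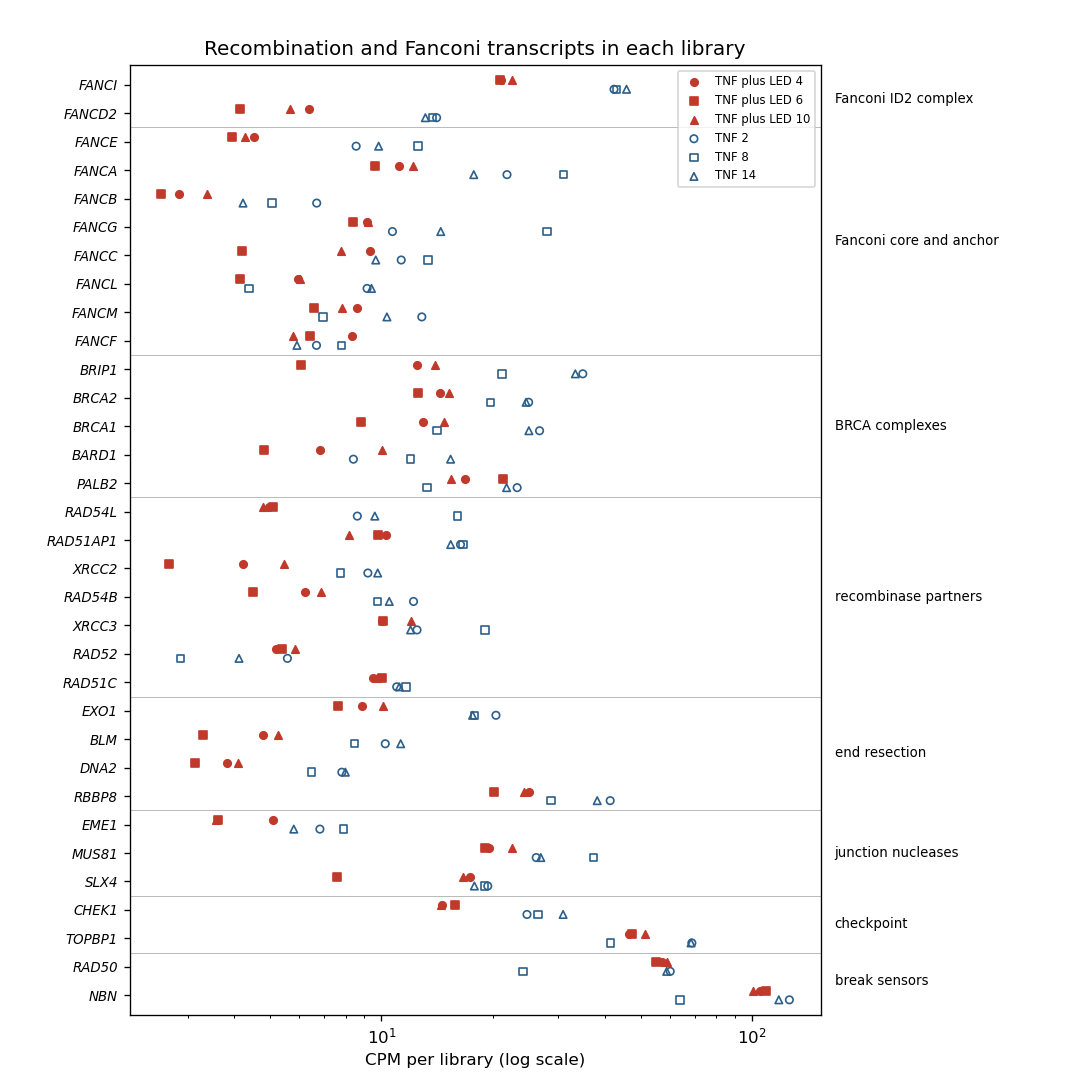
CPM (counts scaled to a common library total, log axis) of each of the 33 genes in the 3 LED libraries (filled red) and the 3 TNF libraries (open blue), with marker shapes for replicates and genes grouped by role. FANCI and FANCD2 show groups far apart, whereas for RAD50 the LED libraries sit among TNF replicates 2 and 14, with TNF replicate 8 alone at 24.1 CPM.

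**Figure D2:**
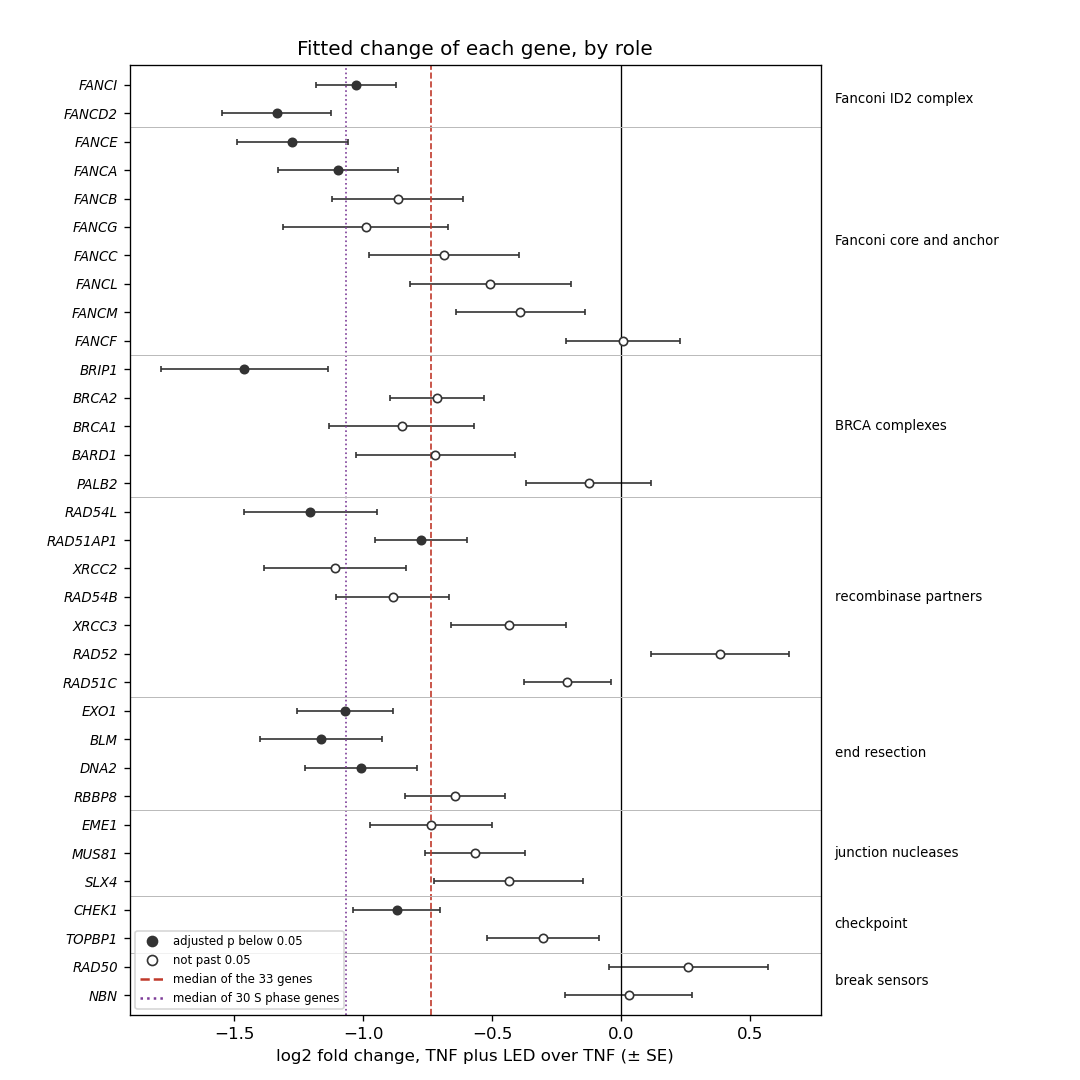
Fitted log2 fold change of TNF plus LED over TNF for each gene with its standard error (SE), with filled points for an adjusted p below 0.05. Dashed and dotted lines mark the medians of the 33 genes (-0.74) and of 30 S phase genes (-1.07), and the break sensors RAD50 and NBN lie at or above 0.

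Deposited totals were between 86000253 and 108074289 estimated counts per library, or about 21500063 to 27018572 fragments, since a fragment appeared to be worth about 4 units. The lowest value of any of the 33 genes in any library was 256 units, about 64 fragments. All levels below are CPM, scaled with edgeR's TMM factors. All 10 listed fibroblast markers were above 0 in every library, with COL1A1 between 8705 and 14262 CPM. The leukocyte list summed to between 114 and 153 CPM in LED libraries and between 92.9 and 138 CPM in TNF libraries, nearly all of it CD68, while CD3E was at 0 in every library and PTPRC in 5 of 6. The endothelial list summed to between 58.6 and 76.8 CPM with LED and between 78.1 and 112 CPM with TNF, nearly all of it TEK. TEK was lower in every LED library than in any TNF library without passing the test (edgeR adjusted p = 0.106). VWF went the other way, with a mean of 1.64 CPM with LED and 0.638 CPM with TNF. It was higher in every LED library than in any TNF library, also without passing (edgeR adjusted p = 0.130). CDH5 was at 0 throughout. The epithelial list summed to between 30.1 and 46.2 CPM with LED and between 28.5 and 35.0 CPM with TNF, nearly all of it KRT18, with KRT5 at 0 throughout. The part of such cells in the results was not tested. The labels do not say that libraries came from separate cultures, so p-values measure the spread between these libraries, which may be technical. In bulk RNA, fewer cells in S phase and less RNA per cell cannot be told apart.

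Both genes of the complex that carries the Fanconi signal (the ID2 complex) fell, with a median log2 fold change of -1.18. FANCI, the partner of FANCD2 in the clamp that encircles DNA at a crosslink, had 21.1, 20.9 and 22.5 CPM in LED replicates 4, 6 and 10, against 42.4, 43.1 and 45.8 CPM in TNF replicates 2, 8 and 14. The spread within each group was small beside the gap, and FANCI fell by 1.03 ± 0.15 on the log2 scale (SE, edgeR adjusted p = 0.0121). FANCD2, whose ubiquitination is the central step of the pathway, had 6.38, 4.16 and 5.67 CPM in LED libraries and 14.1, 13.7 and 13.1 CPM in TNF libraries. It fell by 1.34 ± 0.21 (edgeR adjusted p = 0.0137). In both genes the TNF libraries were nearly level, including TNF replicate 8, which stood apart for other genes. Among single omissions FANCD2 kept its call in 4 of 6 and FANCI in 3 of 6, with adjusted p up to 0.0542 without any 1 library for FANCD2 and up to 0.0736 for FANCI. Exons of FANCI overlap those of POLG on the opposite strand over 8.33% of its exonic bases, and POLG had a log2 fold change of -0.13 (edgeR adjusted p = 0.719).

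The core complex that ubiquitinates this pair was mixed. Of 8 genes for the core and its DNA anchor, FANCE and FANCA passed as lower and 6 missed the threshold, with a median log2 fold change of -0.78. FANCE, which bridges the core to FANCD2, had 4.52, 3.97 and 4.29 CPM in LED libraries, against 8.55, 12.5 and 9.83 CPM in TNF libraries. It fell by 1.27 ± 0.21 (edgeR adjusted p = 0.0172), and its groups were well separated. FANCA, a scaffold of the core, had 11.2, 9.60 and 12.1 CPM with LED and 21.8, 31.0 and 17.7 CPM with TNF, a fall of 1.10 ± 0.23 (edgeR adjusted p = 0.0334). FANCA shares 22.4% of its exonic bases with ZNF276 on the opposite strand, and ZNF276 had a log2 fold change of 0.27 (edgeR adjusted p = 0.359).

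FANCG, which binds FANCA, shows how far 1 library could carry a mean. It had 9.16, 8.38 and 9.18 CPM in LED libraries and 10.7, 27.9 and 14.5 CPM in TNF libraries. The groups did not overlap, yet TNF replicate 8 was 2.22 times the mean of the other TNF libraries, and the log2 fold change of -0.99 ± 0.32 did not pass (edgeR adjusted p = 0.107). Without TNF replicate 8 it was -0.50, and it was -1.26 and past the threshold without TNF replicate 2. FANCB, a core subunit encoded on the X chromosome, had 2.85, 2.54 and 3.38 CPM with LED and 6.69, 5.07 and 4.23 CPM with TNF, without passing (edgeR adjusted p = 0.0830). FANCC (-0.69), the ubiquitin ligase FANCL (-0.51) and the DNA translocase FANCM (-0.39), which anchors the core, did not pass on the log2 scale either. FANCL shares 26.6% of its exonic bases with VRK2 on the opposite strand, which was at -0.36 (edgeR adjusted p = 0.373), so its counts are uncertain. The adaptor FANCF averaged 6.84 ± 1.32 CPM in LED libraries and 6.80 ± 0.950 CPM in TNF libraries (SD, n = 3 each), the smallest fitted log2 fold change in size among the 33 genes (0.01 ± 0.22 SE).

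Among the genes that trim a break to single-stranded DNA, 3 of 4 fell. EXO1, a nuclease for long-range trimming, had 8.86, 7.61 and 10.1 CPM in LED libraries, against 20.4, 17.8 and 17.6 CPM in TNF libraries. It fell by 1.07 ± 0.19 (edgeR adjusted p = 0.0197), and the highest LED value was well below the lowest TNF value. BLM, the helicase that opens DNA ahead of the nucleases, had 4.80, 3.31 and 5.26 CPM with LED and 10.2, 8.45 and 11.3 CPM with TNF. DNA2, the nuclease that works with BLM, had 3.84, 3.14 and 4.11 CPM with LED and 7.82, 6.49 and 7.99 CPM with TNF. Both fell, BLM by 1.16 ± 0.24 and DNA2 by 1.01 ± 0.22 (edgeR adjusted p = 0.0319 and 0.0339), and LED replicate 6 was the lowest library in each. RBBP8, which starts the trimming, had 25.1, 20.1 and 24.2 CPM in LED libraries and 41.4, 28.7 and 38.2 CPM in TNF libraries. Its groups did not overlap, but its log2 fold change of -0.64 ± 0.19 did not pass (edgeR adjusted p = 0.0885).

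Promoters are shown for 5 genes to set the DNA beside these values: EXO1, FANCD2, BLM and BRIP1 fell, while TOPBP1 did not pass although it holds a word found in EXO1. Each stretch runs from 120 bases before to 30 bases after the RefSeq start on GRCh38.p14, 5′ to 3′ along the gene. Capitals mark matches on either strand to an E2F word (TTTGGCGC, TTTCCCGC, TTTCGCGC or TTTGCCGC) or to the CCAAT box (CCAAT), which NF-Y binds. The positions are chr1:241848084-241848233 (plus strand) for EXO1, chr3:10026317-10026466 (plus) for FANCD2, chr15:90717226-90717375 (plus) for BLM, chr17:61863499-61863648 (minus) for BRIP1 and chr3:133661912-133662061 (minus) for TOPBP1.
EXO1: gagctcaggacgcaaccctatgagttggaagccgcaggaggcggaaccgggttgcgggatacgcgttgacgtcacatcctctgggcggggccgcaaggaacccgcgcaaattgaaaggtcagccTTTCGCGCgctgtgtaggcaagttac
FANCD2: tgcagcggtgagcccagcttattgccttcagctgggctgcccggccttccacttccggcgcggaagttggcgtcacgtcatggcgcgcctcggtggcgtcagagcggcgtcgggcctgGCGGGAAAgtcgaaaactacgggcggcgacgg
BLM: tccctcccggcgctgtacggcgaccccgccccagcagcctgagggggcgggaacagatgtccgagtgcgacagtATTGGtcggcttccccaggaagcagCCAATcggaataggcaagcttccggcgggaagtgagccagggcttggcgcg
BRIP1: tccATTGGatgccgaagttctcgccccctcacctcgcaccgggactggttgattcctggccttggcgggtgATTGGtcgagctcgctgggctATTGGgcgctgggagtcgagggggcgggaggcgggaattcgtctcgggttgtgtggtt
TOPBP1: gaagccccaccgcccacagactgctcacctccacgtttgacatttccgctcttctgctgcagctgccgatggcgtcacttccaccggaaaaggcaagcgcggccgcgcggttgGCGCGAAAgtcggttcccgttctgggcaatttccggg

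RefSeq promoters of 300 bases were matched for 29 of the 33 genes, 38 promoters in all. An E2F word was present in 6 of these 38, against 3.31% of all 35116 promoters of the same length. Among promoters of tested genes the share was 4.67%. Counted by gene, it was 20.7% of the 29 genes and 6.4% of tested genes. The 6 belonged to EXO1, FANCD2 and FANCA, which fell, and to XRCC2, FANCC and TOPBP1, which did not pass. A CCAAT box was present in 15 of the 38, against 34.6% of all promoters and 34.1% of those of tested genes. Some genes have several promoters, and counted by gene the share was 41.4%, against 42.6% of tested genes. The CHR words TTTGAA and TTCGAA, which mark many mitotic genes, were found in 2 of the 38 (BRIP1 and FANCC), against 16.4% of all promoters. Among promoters of tested genes the CHR share was 12.2%. A heat shock element of 3 units was found in none of the 38, against 0.49% of all promoters and 0.347% of those of tested genes. The words do not overlap each other in the stretches printed. A match describes letters in this window and is not evidence of binding.

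Genes of the BRCA complexes were lower in all 5 cases by their fitted value, and 1 of them passed. BRIP1, the helicase that binds BRCA1 and is also a Fanconi gene, had 12.4, 6.05 and 14.0 CPM in LED replicates 4, 6 and 10, against 34.9, 21.1 and 33.3 CPM in TNF replicates 2, 8 and 14. At a fall of 1.46 ± 0.32 it had the largest decrease among the 33 genes (edgeR adjusted p = 0.0371). LED replicate 6 and TNF replicate 8 were the lowest of their groups for it. BRCA2, which loads the recombinase, had 14.4, 12.6 and 15.2 CPM with LED and 24.9, 19.7 and 24.6 CPM with TNF, and its log2 fold change of -0.71 ± 0.18 lay just outside the threshold (edgeR adjusted p = 0.0542).

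BRCA1, a ubiquitin ligase that promotes trimming and recombinase loading, had 12.9, 8.80 and 14.7 CPM in LED libraries and 26.7, 14.1 and 25.0 CPM in TNF libraries. Its groups overlapped through TNF replicate 8 alone, which was below LED replicate 10, and it did not pass (log2 fold change -0.85 ± 0.28, edgeR adjusted p = 0.115). Without TNF replicate 8 BRCA1 was among the 14 genes called, at -1.09. BARD1, its obligate partner, had 6.84, 4.81 and 10.0 CPM with LED and 8.40, 12.0 and 15.4 CPM with TNF, with overlapping groups (edgeR adjusted p = 0.204). PALB2, the bridge from BRCA1 to BRCA2, averaged 17.8 ± 3.04 CPM in LED libraries and 19.4 ± 5.36 CPM in TNF libraries (SD, n = 3 each).

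Partners and paralogues of the recombinase numbered 7, and 2 of them fell while 5 did not pass, with a median log2 fold change of -0.78. RAD54L, a motor protein that drives strand invasion, had 4.97, 5.10 and 4.78 CPM in LED libraries, against 8.61, 16.0 and 9.60 CPM in TNF libraries. The LED libraries were nearly level and TNF replicate 8 was the highest, and RAD54L fell by 1.20 ± 0.26 (edgeR adjusted p = 0.0341). It shares 18% of its exonic bases with LRRC41 on the opposite strand, whose log2 fold change was 0.09 (edgeR adjusted p = 0.799). RAD51AP1, which stimulates strand invasion, had 10.3, 9.76 and 8.18 CPM with LED and 16.3, 16.6 and 15.4 CPM with TNF, a fall of 0.78 ± 0.18 (edgeR adjusted p = 0.0409).

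XRCC2 and RAD54B lay just outside the threshold. XRCC2, a paralogue that helps assemble the recombinase filament, had 4.24, 2.67 and 5.48 CPM in LED libraries and 9.19, 7.76 and 9.77 CPM in TNF libraries (log2 fold change -1.11 ± 0.28, edgeR adjusted p = 0.0511). RAD54B, a relative of RAD54L, had 6.21, 4.49 and 6.86 CPM with LED and 12.2, 9.74 and 10.5 CPM with TNF (-0.89 ± 0.22, edgeR adjusted p = 0.0511). RAD54B shares 63.3% of its exonic bases with FSBP on the same strand, so the division of counts between them is uncertain. The other 3 genes were closer to 0. XRCC3 had a log2 fold change of -0.44 ± 0.22 and shares 45.3% of its exonic bases with KLC1 on the opposite strand, which was at -0.41, so its counts are uncertain. RAD51C had 9.50, 10.0 and 9.74 CPM with LED and 11.0, 11.7 and 11.2 CPM with TNF, a small difference whose groups did not overlap (-0.21 ± 0.17, edgeR adjusted p = 0.510). RAD52, an annealing protein, averaged 5.48 ± 0.332 CPM in LED libraries and 4.19 ± 1.35 CPM in TNF libraries (SD, n = 3 each), the highest log2 fold change of the 33 genes (0.38 ± 0.27, edgeR adjusted p = 0.440). RAD52 shares 6.67% of its exonic bases with AC004803.1 on the same strand.

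The nucleases that cut joined molecules did not pass. For all 3 every LED library lay below every TNF library, which held for 16.2% of all tested genes. EME1, the partner that activates MUS81, had 5.10, 3.63 and 3.59 CPM in LED libraries and 6.82, 7.90 and 5.80 CPM in TNF libraries (log2 fold change -0.74 ± 0.24, edgeR adjusted p = 0.106). EME1 shares 10.3% of its exonic bases with LRRC59 on the opposite strand, which was at 0.13. MUS81 itself was at -0.57 ± 0.19 (edgeR adjusted p = 0.124). SLX4, the scaffold of these nucleases, had 17.3, 7.57 and 16.6 CPM with LED and 19.4, 19.0 and 17.8 CPM with TNF, so LED replicate 6 held most of its difference (edgeR adjusted p = 0.414). SLX4 stood at -0.14 on the log2 scale once LED replicate 6 was left out.

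CHEK1, the kinase that halts the cycle when replication forks stall, had 14.6, 15.8 and 14.5 CPM in LED libraries, against 24.7, 26.5 and 30.9 CPM in TNF libraries. It fell by 0.87 ± 0.17 (edgeR adjusted p = 0.0283). TOPBP1, which activates the checkpoint upstream of CHEK1, had 46.4, 47.3 and 51.2 CPM with LED and 68.7, 41.4 and 68.4 CPM with TNF. Its groups overlapped through TNF replicate 8, the lowest of the 6 libraries, and it did not pass (-0.30 ± 0.22, edgeR adjusted p = 0.454).

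Neither break sensor passed the test, and the fitted values of both rested on TNF replicate 8. RAD50, which tethers the broken ends, had 57.3, 55.2 and 58.9 CPM in LED libraries and 60.1, 24.1 and 58.8 CPM in TNF libraries. NBN, which brings the checkpoint kinase to the sensor complex, had 105, 109 and 100 CPM with LED and 126, 63.9 and 118 CPM with TNF. Apart from TNF replicate 8, all libraries lay between 55.2 and 60.1 CPM for RAD50 and between 100 and 126 CPM for NBN, and the LED libraries were below TNF replicates 2 and 14 for NBN. The log2 fold changes were 0.26 ± 0.31 for RAD50 and 0.03 ± 0.25 for NBN (edgeR adjusted p = 0.667 and 0.959). Without TNF replicate 8 they were -0.06 and -0.22, so the sign turned, and neither passed (edgeR adjusted p = 0.794 and 0.292). For NBN the sign also turned when libraries were scaled by their totals alone (-0.014). RAD50 shares 90.6% of its exonic bases with an annotated readthrough gene on the same strand, so its counts are uncertain.

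The role groups can be set side by side through the median deviation of their genes from the 6-library mean of log2 CPM. Recombinase partners were at -0.29, -0.33 and -0.11 in LED replicates 4, 6 and 10, against 0.24, 0.39 and 0.32 in TNF replicates 2, 8 and 14. Fanconi core genes were at -0.23, -0.59 and -0.21 with LED, against 0.42, 0.49 and 0.21 with TNF. The break sensors were at 0.12, 0.12 and 0.11 with LED, against 0.29, -0.86 and 0.22 with TNF. Groups of libraries were thus apart for the recombinase partners and the Fanconi core and overlapped for the sensors. The overlap of the sensors came from TNF replicate 8 alone (-0.86). Their LED libraries were all below TNF replicates 2 and 14, so the overlap of the sensors and the sign of their fitted values rest on that library. In no single omission was the median log2 fold change of the sensors as low as that of the recombinase partners or the Fanconi core. The sensors are 2 genes only, and no test of the difference between role groups was made over genes, which are not replicates.

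**Figure D3:**
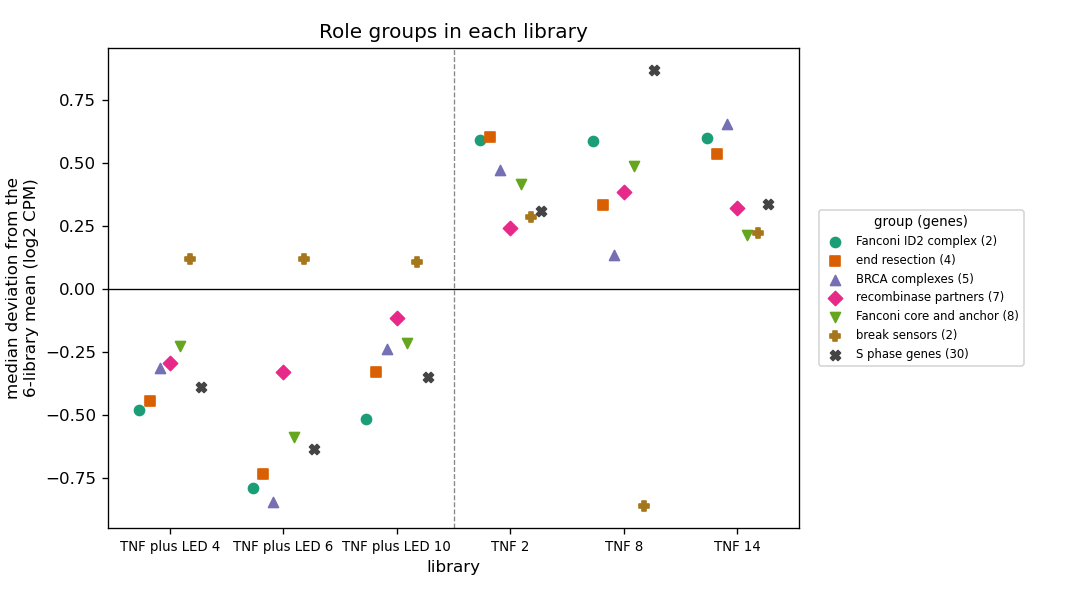
Median deviation from the 6-library mean of log2 CPM for 6 role groups and for 30 S phase genes, in each LED library (left of the dashed line) and each TNF library (right). In TNF replicate 8 the S phase genes (0.87) and the break sensors (-0.86) lie at opposite ends, while FANCD2 and FANCI are near their values in the other TNF libraries.

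Ratios between 2 genes of the same library do not depend on library scaling, and 6 such pairs were compared. The log2 ratio of RAD51AP1 to RAD50 averaged -2.60 ± 0.206 in LED libraries and -1.45 ± 0.792 in TNF libraries (SD, n = 3 each), a difference of -1.16. The log2 ratio of BRCA1 to NBN was -3.02, -3.62 and -2.76 in LED replicates 4, 6 and 10, against -2.24, -2.17 and -2.24 in TNF replicates 2, 8 and 14, a difference of -0.92. EXO1 to RBBP8 averaged -1.38 ± 0.122 with LED and -0.94 ± 0.226 with TNF, a difference of -0.44. In these 3 pairs every LED library was below every TNF library, and the exact two-sided permutation test gave p = 0.1 for each, the smallest p that 3 against 3 allows (0.2 adjusted over the 6 pairs). The CPM of BRCA1 overlapped between groups, while its ratio to NBN did not, and both genes were low in TNF replicate 8. The ratios of XRCC2 to XRCC3 (difference -0.75), FANCI to FANCC (-0.28) and RAD54L to RAD54B (-0.25) overlapped between groups, with exact permutation p of 0.3, 0.5 and 0.6 (0.45, 0.6 and 0.6 adjusted). RAD51AP1 to RAD50 had a difference of -0.70 without TNF replicate 8, and the difference of RAD54L to RAD54B turned to 0.10 without it.

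**Figure D4:**
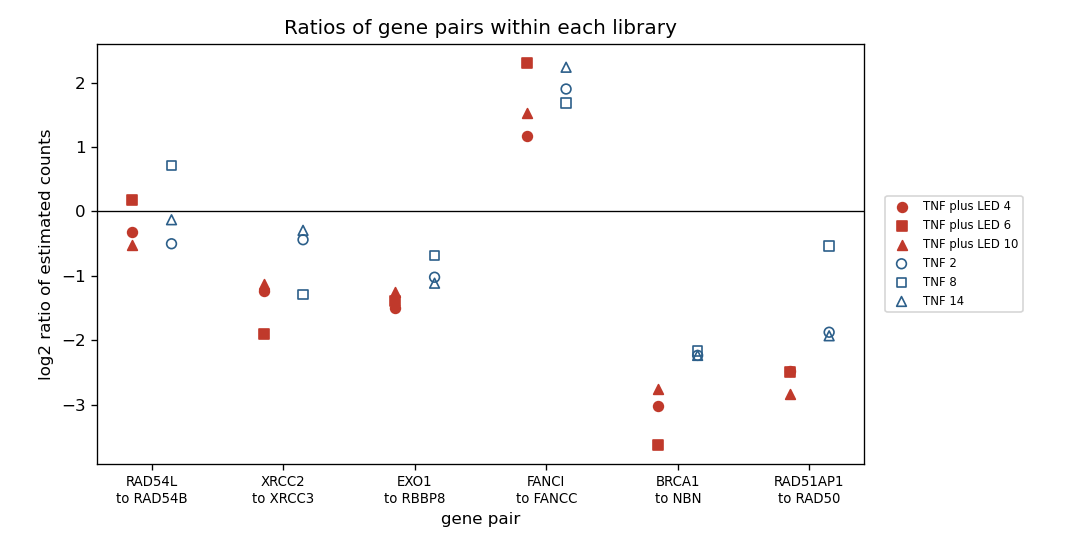
Log2 ratio of estimated counts of 6 gene pairs within each LED library (filled red, left of each pair) and each TNF library (open blue, right). The groups are apart for EXO1 to RBBP8, BRCA1 to NBN and RAD51AP1 to RAD50, and overlap for the other 3 pairs.

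Over all tested genes, deviations rose with transcript GC content in TNF replicate 8 and fell with it or stayed near level in the other 5 libraries. Across all tested genes with a known transcript, the Spearman correlation between a gene's deviation in a library and its GC content was 0.48 in TNF replicate 8 and between -0.32 and -0.01 in the other 5. Over the 33 genes it was 0.52 in TNF replicate 8, -0.49 in TNF replicate 2 and -0.38 in TNF replicate 14, and between -0.098 and 0.019 in the LED libraries, a description over genes that share these libraries. The genes lowest there relative to the mean of TNF replicates 2 and 14 were RAD50 (0.405 times), FANCL (0.473 times) and NBN (0.524 times), and the highest were FANCG (2.22 times) and RAD54L (1.76 times). With the GC trend removed from each library, an alternative chosen after seeing the data, 17 of the 33 genes fell, including all 11, and the median log2 fold change was -0.87. More genes were called in both directions over all tested genes in that fit too, with the totals given under processing below. In that fit RAD50 had a log2 fold change of 0.23 and NBN one of -0.056, and neither passed (edgeR adjusted p = 0.543 and 0.821). In LED replicate 6, 21 of the 33 genes were at their lowest of the 6 libraries. The share of all tested genes lowest there was not counted, so this is not shown to be particular to the repair genes. Over all genes, the Spearman correlation of deviation with transcript length was -0.24 in LED replicate 6 and in TNF replicate 8. It was 0.13 and 0.30 in LED replicates 4 and 10.

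**Figure D5:**
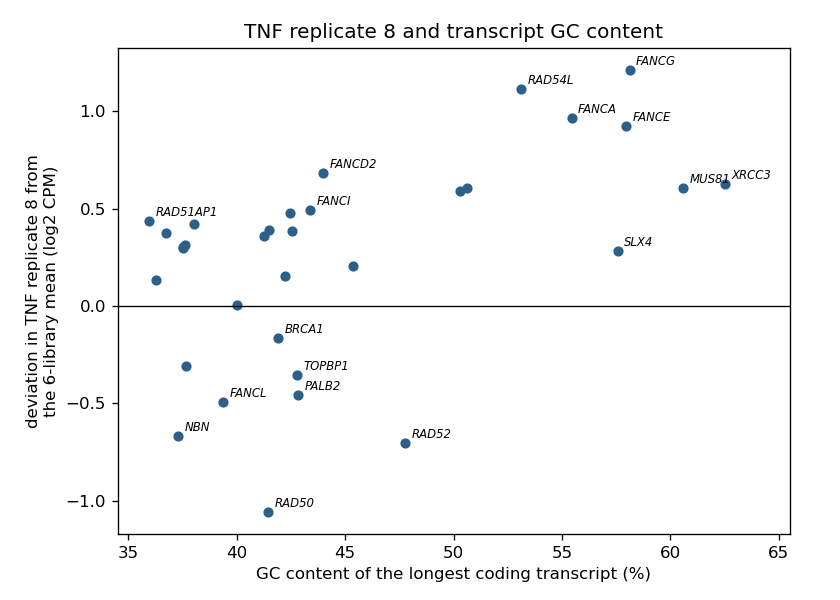
Deviation of each of the 33 genes in TNF replicate 8 from its 6-library mean (log2 CPM) against the GC content of its longest coding transcript (percent). FANCG, RAD54L, FANCA and FANCE, with high GC content, lie at the top, and RAD50, RAD52 and NBN lie at the bottom.

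Other genes of the same repair pathways were counted separately. Among 61 further recombination and Fanconi genes there were 5 that fell, 0 that rose and 56 that missed the threshold, with a median log2 fold change of -0.15. Over all tested genes 2.73% were called lower. UBE2T, the enzyme that passes ubiquitin to FANCD2 together with FANCL, had 10.6, 10.5 and 10.3 CPM in LED libraries and 17.7, 31.7 and 19.3 CPM in TNF libraries (-1.13 ± 0.24, edgeR adjusted p = 0.0334). CLSPN, the adaptor through which CHEK1 is activated, fell by 1.14 ± 0.26 (edgeR adjusted p = 0.0409). RMI2, a subunit of the BLM complex, fell by 1.18 ± 0.28 (edgeR adjusted p = 0.0475), and C17orf53, also known as HROB, fell by 1.29 ± 0.29 (edgeR adjusted p = 0.0383). The checkpoint kinases ATM and ATR, chosen after their values were seen, had log2 fold changes of -0.03 and 0.10. Other sensor and checkpoint genes of the list, picked likewise, went both ways without passing. MRE11, the partner of RAD50 and NBN, was at -0.44 (edgeR adjusted p = 0.184), with every LED library below every TNF library. RAD1 was at -0.40 and ATRIP at -0.73, while HUS1 was at 0.38 and RAD9A at 1.08. Whether the 33 genes differ from these 61 was not tested.

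End joining, the route that rejoins broken ends without a template, gave 1 gene that fell among 18 tested, none that rose and 17 that did not pass, with a median log2 fold change of -0.03. Over all tested genes 2.73% were called lower and 5.17% in either direction, so 1 call is near that share. The gene that fell was TDP1, which removes trapped topoisomerase from DNA ends (-0.98 ± 0.23, edgeR adjusted p = 0.0464). APLF, an end-joining scaffold with the next lowest p, had a log2 fold change of -0.63 (edgeR adjusted p = 0.170).

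S phase genes were lower along with the repair genes. Of 30 listed, 16 fell, 0 rose and 14 missed the threshold, with a median log2 fold change of -1.07 against -0.74 for the 33 repair genes. The primase subunit PRIM1 fell by 1.57 ± 0.20 (edgeR adjusted p = 0.00617) and the helicase subunit MCM6 fell by 0.94 ± 0.18 (edgeR adjusted p = 0.0273). In TNF replicate 8 the S phase list was 0.87 above its 6-library mean, against 0.31 and 0.34 in TNF replicates 2 and 14, whereas the 33 repair genes were at 0.36 there, against 0.38 and 0.37. Heat shock genes moved the opposite way: 10 of 10 rose, and their summed level was 25208, 35615 and 17008 CPM in LED replicates 4, 6 and 10, against 2667, 2274 and 2717 CPM in TNF replicates 2, 8 and 14. The repair genes were at -0.31, -0.53 and -0.22 in those LED libraries. The part of cell cycle stage or heat stress in the repair genes' levels was not tested.

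Per kilobase of the longest coding transcript, NBN had the highest mean level of the 33 genes in both groups, 22.4 CPM per kb in LED libraries and 22.0 CPM per kb in TNF libraries. MUS81 was next, with 8.50 CPM per kb with LED and 12.6 CPM per kb with TNF. The lowest level in LED libraries was that of BLM (0.848 CPM per kb), and FANCM had the lowest in TNF libraries (1.41 CPM per kb). RAD50 ranked 5 with LED and 9 with TNF, and FANCD2 ranked 30 with LED and 23 with TNF. Differences between neighbouring ranks were not tested.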

How the data were processed

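The authors deposited estimated counts per gene, as whole numbers, and these entered the tests as deposited. Per the submitters' processing notes, bcl2fastq 2.0, HISAT2, StringTie, DESeq2 and limma were used, with no role given. The notes name the mouse build mm10 although samples and symbols are human, so the human build and strandedness are not given in the sources used here. Of low values between 1 and 7, 41.8% equalled 4.

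LED was compared with TNF by edgeR 4.0.16 in R 4.3.3 (filterByExpr, TMM, robust quasi-likelihood fit, Benjamini-Hochberg over all genes). The SE is the log2 fold change divided by the square root of F. On simulated counts for 13794 genes, 36 of 98 genes with a set log2 change of 1 were called, as were 83 of 97 with a set change of 2, and 14 calls were false. Libraries of a group were not copies of each other (chi-square per degree of freedom 23.6 to 115). Transcript length, GC content and exon overlaps (at least 5% named) came from GENCODE 29, and promoters from RefSeq GRCh38.p14. The members, role groups and lists were chosen with earlier results of these data known. All members were named, and from each other list the called genes with the lowest p (up to 4) or the 2 with the lowest p; a few single genes that this rule picks are left out here. Alternatives were DESeq2 1.42.0, limma-voom (limma 3.58.1), other filters, scalings and thresholds, counts divided by 4, libraries left out, and, added after seeing the data, GC or length trends removed. Counting error alone is covered by the depths given.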

Additional observations from a re-analysis of the deposited data

How the results depend on the processing

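All 11 genes that fell kept a negative log2 fold change under each of the 17 alternatives that refitted the values, and 28 of the 33 genes did so. DESeq2 called 18 of the 33 genes lower, with 874 genes higher and 879 lower over all. At an adjusted p below 0.01 the counts were 0 of the 33, 53 higher and 17 lower, and at 0.10 they were 16, 695 and 776. With TNF replicate 8 and LED replicate 6 left out, 19 of the 33 were called (763 higher and 906 lower over all) and the Fanconi core median was -0.56. With the GC trend removed the counts were 17, 592 and 629, with medians of -0.87 over the 33 genes and -0.98 over the recombinase partners. Single omissions gave between 0 and 14 of the 33, between 59 and 314 genes higher and between 21 and 423 lower over all. They gave medians from -0.84 to -0.66 for the 33 genes, -0.14 to 0.32 for the break sensors, -0.83 to -0.69 for the recombinase partners and -0.90 to -0.60 for the Fanconi core. The largest adjusted p of the 11 genes in an omission lay between 0.0542 (FANCD2) and 0.144 (FANCA). The cause of these shifts was not tested.

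Signs turned for 4 genes, of which FANCF, NBN and RAD50 passed in no fit. FANCF was at -0.023 with library totals, -0.00023 with limma-voom and -0.035 with the GC trend removed, and between -0.14 and 0.12 in single omissions. NBN was at -0.014 with library totals, -0.25 without TNF replicate 8 and LED replicate 6, -0.056 with the GC trend removed, and between -0.22 and 0.19 in single omissions. RAD50 was at -0.031 without TNF replicate 8 and LED replicate 6, and between -0.059 and 0.45 in single omissions. PALB2, which was called only with both of those libraries left out, lay between -0.34 and 0.0048 in single omissions. No paired analysis was made, because the labels do not say whether libraries of the groups were paired. The lowest value was about 64 fragments, and with counts divided by 4, near the scale of fragments, 13 of the 33 genes were called, including all 11. The count over all genes in that fit is not given here, so these 13 cannot be set against it.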

Other observations

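The repair genes were spread widely in TNF replicate 8. Relative to the mean of TNF replicates 2 and 14, PALB2 was at 0.591 times, FANCM at 0.599 times, TOPBP1 at 0.604 times and BRCA1 at 0.547 times, while FANCA was at 1.57 times, XRCC3 at 1.56 times and MUS81 at 1.41 times. FANCI (0.978 times), FANCD2 (1.01 times) and RAD51AP1 (1.05 times) were level with those libraries. The BRCA1 to NBN log2 ratio had an SD of 0.0365 over the 3 TNF libraries, the smallest of the 6 pairs. Among the 3 LED libraries the same ratio had an SD of 0.442. Both genes were low in TNF replicate 8, with NBN at 0.524 times the mean of TNF replicates 2 and 14.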
